A study of Rattus norvegicus with 12 samples.

Results

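The earliest response of OLN oligodendroglial cells to p25alpha was measured 8 h after transfection. OLN is a rat line of the oligodendrocyte lineage, and every cell culture compared carried a stably expressed alpha-synuclein. With the Fugene-6 reagent, the cells received an empty control vector (mock) or the p25alpha pcDNA3.1 plasmid. By this design the mock cells express alpha-synuclein alone and the p25alpha cells both proteins, which the arrays did not measure. Each group holds 2 Affymetrix arrays, experiment 1 and experiment 2, and each p25alpha array was compared with the mock array of the same experiment. These 4 arrays are part of 12, the other 8 being the same design at 12 and 16 h. The labels name neither the number of clones behind the line, nor the promoter in the vector, nor the share of cells that took up plasmid, and they do not say that the experiments were separate cultures. A p-value here thus rests on how far these arrays vary, part of which can be technical. Of the 31096 probe sets on the array, 17102 (55.0%) were called present on at least 2 of the 4 arrays and were tested, 14223 of them being present on all 4.

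p25alpha, encoded by Tppp and also called TPPP, is a tubulin-binding protein that oligodendrocytes normally make along their microtubules. In multiple system atrophy, a neurodegenerative disease, it is known to move to the cell body of oligodendrocytes, where alpha-synuclein aggregates. Cells under stress or exposed to a signal first transcribe immediate early genes such as Egr1 and Fos, which need no new protein synthesis. NF-kB, a transcription factor held in the cytoplasm by the inhibitor encoded by Nfkbia, is released by such signals and drives cytokine and chemokine genes, and Nfkbia itself.

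No tested or untested probe set carried the symbol Tppp, so the transfected gene was not read here, and the group labels rest on the submitters alone. Among 10557 probe sets without a gene name, whether any detects it was not tested. Signals are MAS5 intensities on a linear scale, which can be compared between arrays for the same probe set but not between genes.

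The arrays of 8 h were checked for the cell type named in the labels. Of 23 oligodendrocyte lineage markers, 9 were tested. Cnp, an enzyme of the myelin sheath, ranged from 1115.0 to 2363.5 over the 4 arrays. Sox10, a transcription factor of the lineage, ranged from 344.5 to 854.7, and Pdgfra, the growth factor receptor of its precursors, from 1162.2 to 1786.4. Mbp, which encodes myelin basic protein, and Olig2, a factor that specifies the lineage, were among the 10 with a probe set present on fewer than 2 arrays. Of 11 microglia markers only Csf1r was tested, at signals of 8.3 to 44.0. The summed signal of the oligodendrocyte markers was 4194.7 and 3962.0 on the mock arrays and 4894.6 and 3498.6 on the p25alpha arrays, higher in experiment 1 and lower in experiment 2. In bulk RNA, fewer cells of a type and less RNA per cell cannot be told apart.

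Both experiments gave their own measurement, and single probe sets differed more between them than between the groups. The median signal of tested probe sets was 136.4 (mock) and 136.6 (p25alpha) in experiment 1 and 127.7 and 129.0 in experiment 2. The ratio of the actin probe set at the 3′ end to that at the 5′ end tracks RNA integrity. It was 2.14 (mock) and 2.40 (p25alpha) in experiment 1 and 4.65 and 4.74 in experiment 2. The same ratio for hexokinase was 2.07 and 1.63 against 2.70 and 2.48. For GAPDH it was 1.09 and 1.09 against 0.92 and 0.90, so the controls did not all differ in the same direction. Over the probe sets present on all 4 arrays, log2 signals of mock and p25alpha correlated at 0.984 within experiment 1 and 0.987 within experiment 2, against 0.950 between the 2 mock arrays and 0.940 between the 2 p25alpha arrays (across genes, which are not independent). The experiment was therefore kept as a block in the model, and differences are given within each experiment.

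The first question was which transcripts differ 8 h after p25alpha was added. The differences with the smallest p-values were higher signals of cytokine, chemokine and early response genes: Cxcl1 was 11-fold higher in p25alpha cells, Ccl2 5.61-fold, Egr1 3.59-fold and Il6 3.28-fold, each in both experiments. At an adjusted p threshold of 0.05 none of the 17102 probe sets passed (0% higher, 0% lower; limma with the experiment as a block, Benjamini-Hochberg). An unadjusted p under 0.05 was reached by 856 (5.01%), 467 higher (2.73%) and 389 lower (2.27%), where the threshold alone gives 855. The smallest adjusted p was 0.0642, for Cxcl1. Next came 5 probe sets at an adjusted p of 0.0809, all higher in p25alpha cells: Ccl2, Egr1, Il6 and 2 probe sets without a gene name. On simulated data of the same size, the same model recovered 15 of 50 differences of 1 (log2) and 42 of 50 differences of 2. Even there, with 2 arrays a group, differences below 2-fold were rarely recovered. The simulation changed 200 probe sets at once, which eases the adjusted threshold, so its counts do not carry over to these data. Here Cxcl1 at 3.46 and Ccl2 at 2.49 (log2) did not pass either. A gene that did not pass is thus not shown to be unchanged, whatever the size of its difference. Under an offset of 50, or with limma's trended and robust variance, 12 probe sets passed, all higher, with Cxcl1, Ccl2, Egr1 and Il6 among them.

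Across all probe sets the experiments shared little. The differences of experiment 1 and of experiment 2 correlated at 0.08 over all tested probe sets, at 0.15 over those present on all 4 arrays, and at 0.24 over the 8551 above the median signal. A 2-fold higher signal was seen for 223 probe sets in experiment 1 (1.30%) and 279 in experiment 2 (1.63%), and 31 (0.181%) were in both lists, 13.9% of the first and 11.1% of the second. A 2-fold lower signal was seen for 241 (1.41%) and 192 (1.12%), of which 8 (0.0468%) were shared, 3.32% and 4.17%. The 31 shared higher probe sets included 10 present on all 4 arrays and the 8 shared lower ones 0, and in none of those 8 did the brighter group reach the median signal. Among the later pairs, 16 of the 31 were higher in all 4, against 14.3% of all tested probe sets. Of the 8, none was lower in all 4, against 13.2% of all, which in 8 probe sets is near the general share, and their medians were -1.44 at 8 h, -0.17 at 12 h and 0.14 at 16 h (log2, limma, 0 of the 8 past the test at 12 or 16 h). The authors' deposited table gave an Increase call in both pairs for 37 tested probe sets (0.216%) and a Decrease call in both for 9 (0.0526%). In that table experiment 1 had more calls of either kind, 453 Increase (2.65%) and 566 Decrease (3.31%) against 163 (0.953%) and 46 (0.269%).

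**Figure D1:**
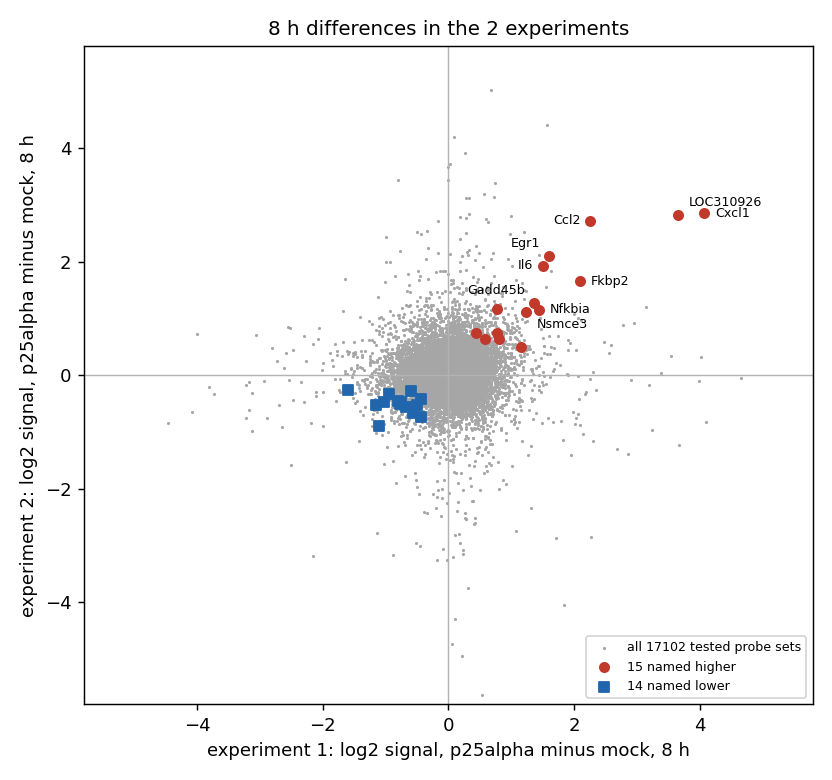
Each point is a tested probe set, with its log2 signal difference (p25alpha minus mock, 8 h) in experiment 1 on the x axis and in experiment 2 on the y axis. The 17102 points form a cloud around 0 with a correlation of 0.08. Of the 15 genes named as higher (red), 9 are labelled at the upper right, among them Cxcl1, LOC310926 and Ccl2. Those named as lower (14 drawn, blue squares) lie at the lower left, with both differences below 0.

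The genes named as higher are the 15 with the smallest p among probe sets with a gene name, the same sign in both experiments, present calls on both arrays of the brighter group and a mean of that group above the median of tested probe sets (131.4). Secreted signals come first. Cxcl1, a chemokine that attracts neutrophils, had signals of 94.6 and 61.9 on the mock arrays of experiments 1 and 2 and of 1590.1 and 444.8 on the p25alpha arrays. The lower p25alpha array was thus well above the higher mock array, with folds of 16.8 and 7.19 in the 2 experiments (log2 3.46 ± 0.30 SE, adjusted p = 0.0642). Ccl2, which attracts monocytes, was already bright in mock cells, at 881.2 and 362.9, and reached 4198.3 and 2394.5 (log2 2.49 ± 0.26). Il6 encodes the cytokine interleukin 6. It measured 41.4 and 52.9 in mock cells and 117.3 and 201.1 in p25alpha cells (log2 1.71 ± 0.19), so that, unlike for Cxcl1, experiment 2 had the larger fold, 3.80 against 2.83. None of these overlapped between the groups.

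Regulators of transcription and signalling formed the second set. Egr1, a zinc finger factor of the immediate early response, had mock signals of 106.3 and 80.6 and p25alpha signals of 322.1 and 343.2 (log2 1.84 ± 0.20). Nfkbia, the NF-kB inhibitor, measured 171.5 and 108.1 in mock cells and 468.2 and 239.6 in p25alpha cells (log2 1.30 ± 0.21, adjusted p = 0.404). Both genes were without overlap, and for Nfkbia both experiments were above 2-fold, at 2.73 and 2.22. Gadd45b, a stress-induced gene of the growth arrest and DNA damage family, measured 168.2 and 89.8 against 434.8 and 216.2 (log2 1.32 ± 0.18, adjusted p = 0.174), again about equal in the experiments at 2.59-fold and 2.41-fold. Ier3, an early response gene that is bright in these cells, went with 1066.3 and 725.9 in mock and 1829.5 and 1209.9 in p25alpha cells (1.72-fold and 1.67-fold).

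Genes of stress handling had smaller differences. Ppp1r15a directs a phosphatase to eIF2alpha and so restores translation under stress. Its signals were 128.0 and 67.7 in mock cells and 222.1 and 105.1 in p25alpha cells (log2 0.71 ± 0.12, adjusted p = 0.548), and the groups overlapped because experiment 2 was lower on both arrays. Hmox1, haem oxygenase, measured 294.2 and 191.0 against 654.0 and 270.1, with a larger fold in experiment 1 (2.22) than in experiment 2 (1.41). Txnip, an arrestin-like protein that binds thioredoxin, measured 66.8 and 103.7 against 113.6 and 231.8 (log2 0.96 ± 0.21), and its mock array of experiment 2 was only marginally detected. Pvr, a cell adhesion receptor, and Rnf146, a ubiquitin ligase that reads poly-ADP-ribose, were 1.53-fold and 1.51-fold higher. The other tested probe set of Rnf146 measured -0.33 ± 0.41. For its listed probe set the authors' deposited table gave log2 ratios of 0.2 and 0.2, with no change call in either pair.

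The remaining higher probe sets carry limits of their own. LOC310926, a locus without a further name in the tables used, was called absent on both mock arrays, at 16.0 and 21.7, and present on both p25alpha arrays, at 202.8 and 153.6. By these signals it was 9.47-fold higher, 12.7-fold in experiment 1 and 7.08-fold in experiment 2 (log2 3.24 ± 0.54, limma adjusted p = 0.454). The fold is a rough value because both mock arrays were called absent. Fkbp2, a prolyl isomerase of the endoplasmic reticulum, was 3.67-fold higher on 1 probe set, but its other tested probe sets measured -0.18 ± 0.14 and 0.11 ± 0.16. The identifier of the first carries the x suffix by which Affymetrix marks probes that can also match other transcripts, and it had no change call in either pair of the authors' deposited table. Nsmce3, a subunit of the SMC5-SMC6 complex, was 2.26-fold higher on its listed probe set and at 0.14 ± 0.12 on the other. For the listed probe set the authors' deposited table gave log2 ratios of only 0.5 and 0.0, also with no change call. Over all 15, both p25alpha arrays lay above both mock arrays for 12, a pattern that 8.81% of all tested probe sets show and that the choice of genes favours. The authors' deposited table called 11 of the 15 increased in both pairs.

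**Figure D2:**
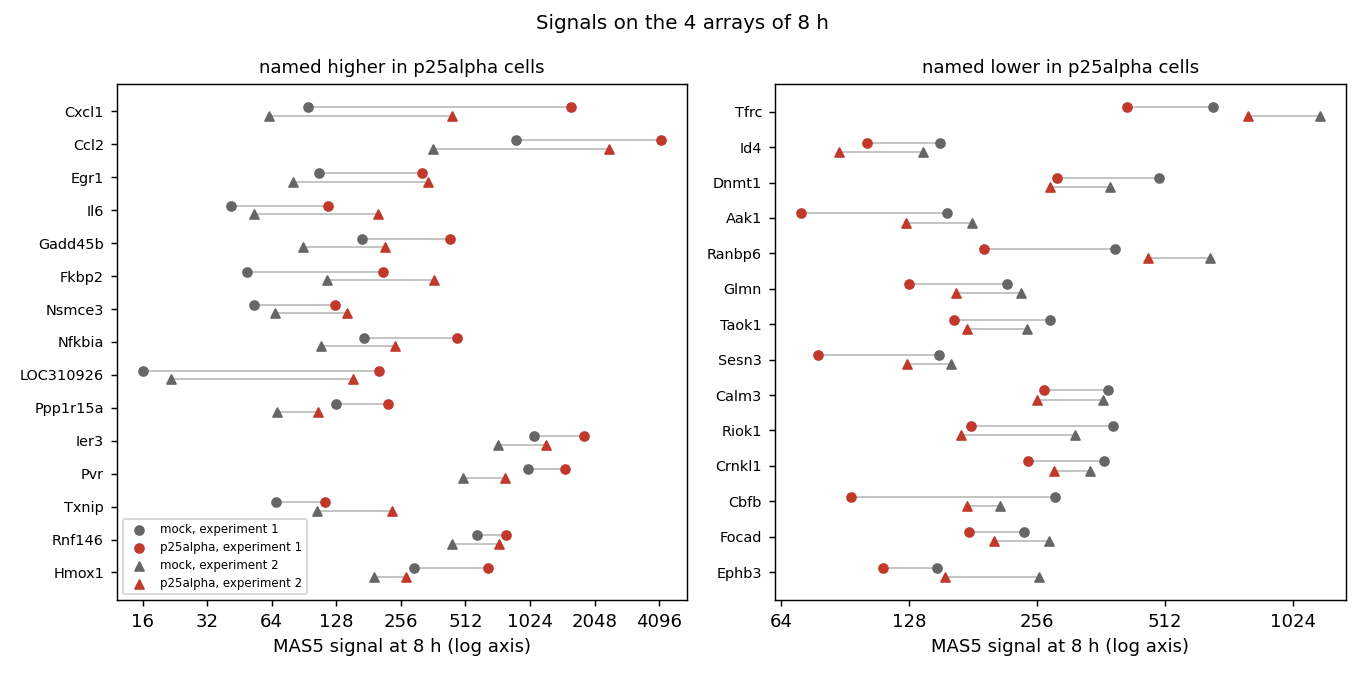
MAS5 signals on a log axis for the 15 genes named as higher (left) and 14 of those named as lower (right), with mock in grey, p25alpha in red, circles for experiment 1 and triangles for experiment 2, and a line joining the arrays of the same experiment. Cxcl1 spans from 61.9 to 1590.1, whereas the mean difference of a lower gene is at most 50%, for Riok1.

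The upstream sequences of the higher genes that belong to the immediate early or NF-kB lists are shown because NF-kB and serum response factor are known to act through short motifs near the start of such genes. Of 6 such genes, Cxcl1, Ccl2, Egr1, Il6, Nfkbia and Ier3, the RefSeq promoter table of build GRCr8 held 4. The 250 bases before each annotated start are printed 5′ to 3′ on the gene's strand, with matches to searched motifs in capitals.
Cxcl1: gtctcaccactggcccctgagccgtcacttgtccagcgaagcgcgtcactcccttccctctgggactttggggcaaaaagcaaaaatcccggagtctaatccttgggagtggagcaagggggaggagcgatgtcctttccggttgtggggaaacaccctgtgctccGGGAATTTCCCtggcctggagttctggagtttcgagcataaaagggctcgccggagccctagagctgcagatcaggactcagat
Il6: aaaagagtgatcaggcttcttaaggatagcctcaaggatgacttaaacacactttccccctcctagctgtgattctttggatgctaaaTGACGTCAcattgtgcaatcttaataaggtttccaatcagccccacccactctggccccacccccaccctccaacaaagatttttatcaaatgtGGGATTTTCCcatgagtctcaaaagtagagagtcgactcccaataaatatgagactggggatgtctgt
Nfkbia: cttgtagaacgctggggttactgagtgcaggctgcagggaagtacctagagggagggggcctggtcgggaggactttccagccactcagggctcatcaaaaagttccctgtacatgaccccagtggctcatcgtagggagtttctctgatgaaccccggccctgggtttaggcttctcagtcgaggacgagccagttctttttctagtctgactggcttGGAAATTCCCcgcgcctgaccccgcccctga
Egr1: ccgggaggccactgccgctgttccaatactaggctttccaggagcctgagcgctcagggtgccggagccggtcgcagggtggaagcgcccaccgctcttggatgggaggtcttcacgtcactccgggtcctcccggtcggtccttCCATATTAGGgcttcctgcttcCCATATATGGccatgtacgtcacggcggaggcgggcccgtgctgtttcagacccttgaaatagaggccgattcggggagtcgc
They lie at chr14:17479322-17479571 (minus strand) for Cxcl1, chr4:5894576-5894825 (minus strand) for Il6, chr6:78597073-78597322 (minus strand) for Nfkbia and chr18:26736828-26737077 (plus strand) for Egr1. The capitals in Cxcl1 are a kappa B motif, the sequence NF-kB binds, read on both strands in overlapping positions from 84 to 74 bases before the start. Il6 has a kappa B match from 68 to 59 bases before its start and, further up, the cyclic AMP response element TGACGTCA from 162 to 155. The Nfkbia match is a kappa B motif on the opposite strand, 31 to 22 bases before the start. In Egr1 the capitals are 2 CArG boxes, the motif of serum response factor, at 105 to 96 and 83 to 74 bases before the start. Among 33469 rat promoters of the same length, 6.33% held a kappa B motif on either strand, 1.5% a CArG box and 1.59% TGACGTCA, while TGANTCA, the AP-1 motif, was in 6.34% and TATAAA on the gene strand in 8.06%, and neither of the last was in these 4. The 4 genes were taken from the immediate early and NF-kB lists, a choice that favours these motifs, so the shares are background and not a test. A match describes the letters in this window and not a bound site.

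The genes named as lower, by the same rule turned round, differed less, by 50% at most, with adjusted p from 0.751 to 0.957. Tfrc, the transferrin receptor through which cells take up iron, had signals of 664.1 and 1185.6 on the mock arrays and of 416.3 and 804.1 on the p25alpha arrays, 34.8% lower (log2 -0.62 ± 0.12). It was lower by a similar factor in both experiments, 1.60 and 1.47, although experiment 2 was brighter throughout, and it was the only one of the 15 that the authors' deposited table called decreased in both pairs. The other tested probe set of Tfrc measured -0.27 ± 0.12. Riok1, a kinase of small ribosomal subunit maturation, went from 386.3 and 314.2 to 178.8 and 169.5 (50% lower, SE 0.28 on the log2 scale). For Riok1 the authors' deposited table gave log2 ratios of only -0.1 and 0.0, with no change call in either pair. Dnmt1, the maintenance DNA methyltransferase, went from 496.5 and 379.9 to 285.8 and 275.4 (log2 -0.63 ± 0.15). Neither overlapped between the groups. Aak1, a kinase of clathrin-mediated uptake, was at -0.83 ± 0.20, with other tested probe sets at 0.45 ± 0.38 and 0.06 ± 0.36. Glmn, which encodes glomulin, was at -0.64 ± 0.16 with another at 0.23 ± 0.23.

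For the rest of the lower genes the values were as follows. Ranbp6, an importin-like protein, was at -0.75 ± 0.18 with the greater difference in experiment 1, -1.02 against -0.48. Crnkl1, a spliceosome factor, was at -0.44 ± 0.13, Focad, which encodes focadhesin, at -0.43 ± 0.13, and Ephb3, an ephrin receptor, at -0.58 ± 0.18. Both p25alpha arrays lay below both mock arrays for 11 of the 15, against 8.20% of all tested probe sets, again favoured by the choice. By the calls of the authors' deposited table, 8 of the 15 had no change call in either pair.

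For 5 of the lower genes the mock arrays of 8 h stood above all 10 other arrays of the series, a pattern shown by 178 of all tested probe sets (1.04%). The pattern needs both mock arrays above both p25alpha arrays at 8 h, which the choice of these genes favours. The share of all probe sets is thus not a like reference. Id4, a helix-loop-helix inhibitor of differentiation, had mock signals of 151.6 and 138.0 at 8 h and of 68.3 to 82.0 at 12 and 16 h, while the p25alpha arrays stayed between 84.0 and 101.9 at all times. These values are of 1 of 4 tested probe sets of Id4, and the others measured 0.25 ± 0.26, 0.34 ± 0.21 and -0.11 ± 0.17 at 8 h, so that direction differs between them. Sesn3, a stress-regulated sestrin, measured 150.4 and 160.3 on the mock arrays of 8 h and at most 126.6 on any other. Cbfb, the partner of RUNX factors, measured 282.7 and 209.1 there, 93.3 and 174.9 in p25alpha cells at 8 h, and 92.6 to 135.5 on all later arrays. Its difference therefore rests mostly on experiment 1 (-1.60 against -0.26), and its other probe set measured 0.06 ± 0.13. Taok1, a kinase acting on MAP kinases, and Calm3, a calmodulin gene, had the same order, at -0.61 ± 0.16 and -0.51 ± 0.14, and the other probe set of Calm3 measured -0.23 ± 0.14. The mock arrays of 8 h against the later mock arrays differed for Id4 by 0.93 ± 0.11 (limma adjusted p = 0.14), in a comparison where 1 of all probe sets passed as higher at 8 h (0.00585%). These mock arrays are the same that enter the 8 h difference.

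**Figure D3:**
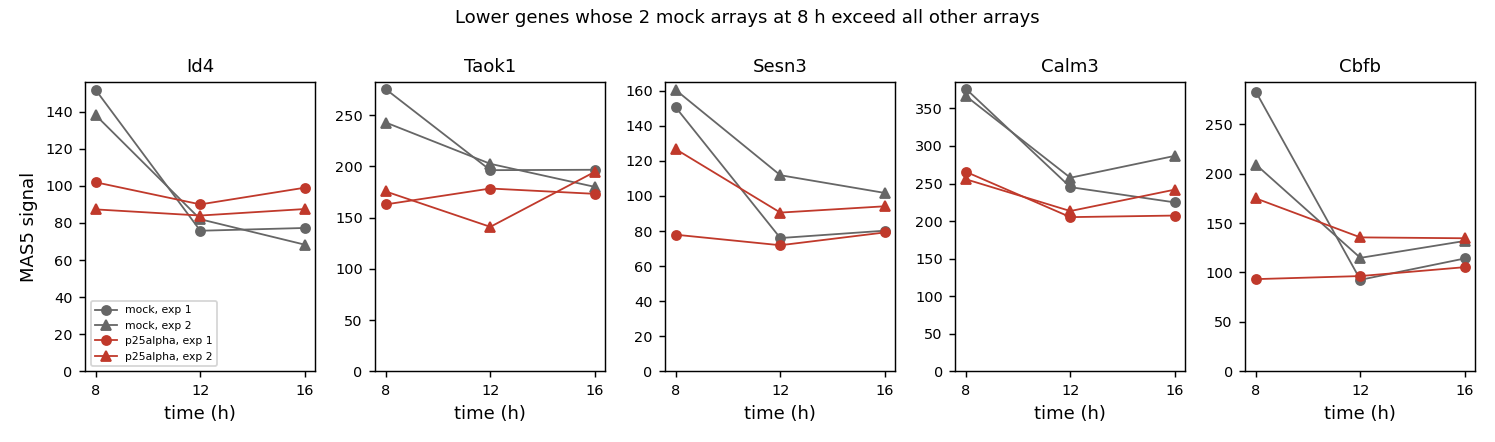
MAS5 signal (linear axis from 0) against time after transfection for the 5 lower genes whose mock arrays of 8 h exceeded all other arrays, with mock in grey, p25alpha in red, circles for experiment 1 and triangles for experiment 2. For the plotted probe set of Id4 the mock lines drop from 151.6 and 138.0 at 8 h below both p25alpha lines at 12 and 16 h.

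The second question was whether the genes named at 8 h differ in the same direction at 12 and 16 h. The 8 h differences come from the arrays of 8 h alone, but the p-values that chose the genes used a spread estimated over all 12 arrays. The later arrays thus had a part in the choice, which favours genes whose pairs vary little, and the counts below are a description and not an independent check. On their listed probe sets, the 15 higher genes were all higher in the 4 later pairs, against 14.3% of all tested probe sets. Of these, 8 passed the test at 12 h, where 15 of all probe sets passed as higher (0.0877%) and 2 as lower (0.0117%), and 7 at 16 h, where 13 passed (0.0760%). Il6 reached 6.75-fold at 12 h and 6.71-fold at 16 h (adjusted p = 0.00581 and 0.00727), Egr1 6.42-fold and 5.59-fold (0.00581 and 0.0091), and Cxcl1 8.09-fold and 7.89-fold (0.0157 and 0.0206). Ccl2 passed at 12 h (6.54-fold, adjusted p = 0.0146) and not at 16 h (4.02-fold, 0.0864). Nfkbia was at 3.25-fold (adjusted p = 0.0499) and 2.93-fold (0.0883). Gadd45b rose 4.06-fold and 5.61-fold (0.00958 and 0.00727). Txnip rose 4.92-fold and 5.21-fold (0.0134 and 0.0135). The listed Fkbp2 probe set is among those that passed at both times. The other tested probe sets of Fkbp2 were at 0.11 and 0.32 at 12 h and -0.15 and -0.06 at 16 h (log2). That of Nsmce3 was at -0.09 at 12 h and -0.55 at 16 h, and that of Rnf146 at 0.02 and 0.56.

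The test of the difference between times was made directly, as the mean effect at 12 and 16 h minus the effect at 8 h. No probe set passed it (0%), and 863 (5.05%) had an unadjusted p under 0.05, 6 of them among the 15 higher genes. The median effect of the 15 was 1.30 at 8 h, 2.02 at 12 h and 2.01 at 16 h (log2). The smallest p among the 15 was that of Txnip, at 1.38 ± 0.26 (unadjusted p = 0.000903, adjusted p = 0.964). Larger later effects were also measured for the Fkbp2 probe set (1.56 ± 0.33), Il6 (1.04 ± 0.24) and Gadd45b (0.94 ± 0.22). Cxcl1 and Ccl2 were at -0.46 ± 0.36 and -0.13 ± 0.32, the 8 h effect being the larger one by these estimates. For Egr1 the later effect was larger by 0.74 ± 0.24, and its mock signal was higher at 8 h than later by 0.67 ± 0.17 (neither passed, adjusted p = 0.964 and 0.508).

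Among the 15 lower genes, 9 were lower in all 4 later pairs, against 13.2% of all tested probe sets, and none passed at 12 or 16 h (limma). Their median effect was -0.62 at 8 h, -0.33 at 12 h and -0.19 at 16 h. Aak1, Glmn, Riok1 and Crnkl1 had similar values later, such as -0.96 and -0.89 for Riok1 at 12 and 16 h. Ranbp6, Cbfb and Ephb3 were near 0 at 12 h, at 0.16, 0.15 and 0.12, and Id4 was higher in all 4 later pairs.

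**Figure D4:**
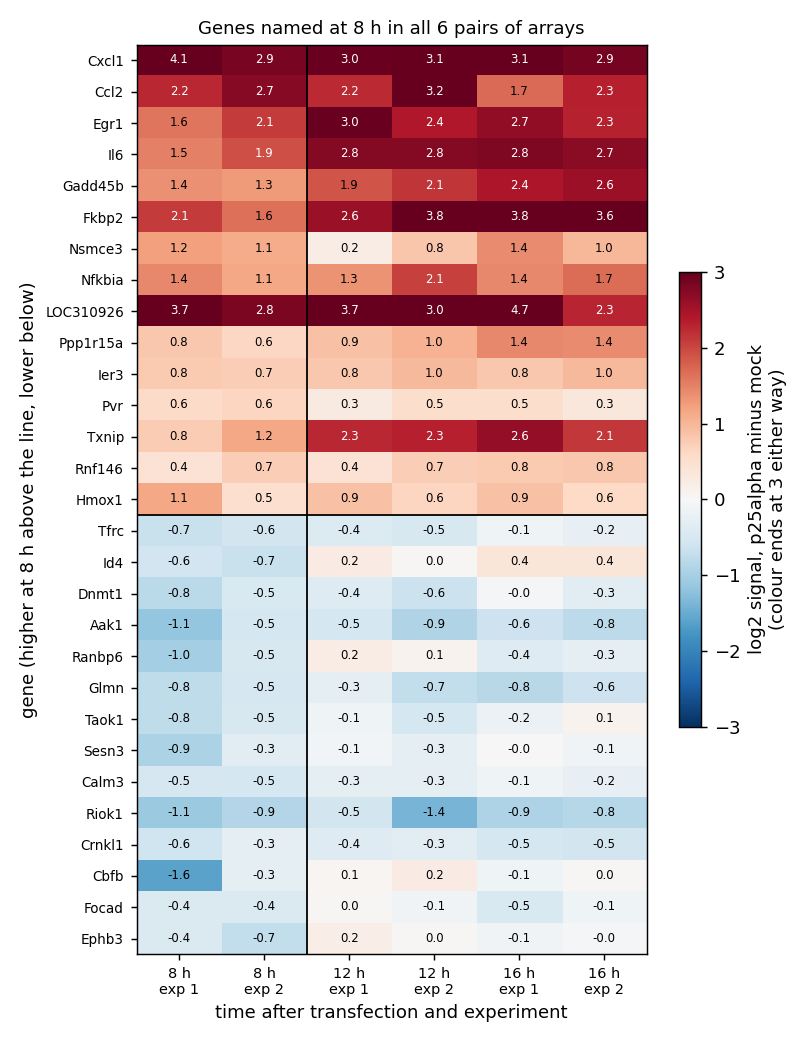
Log2 signal difference, p25alpha minus mock, for 29 genes named at 8 h (rows) in the 6 pairs of arrays (columns, by time and experiment), red for higher and blue for lower in p25alpha cells. The 15 upper rows are red in all columns, deepest for Cxcl1, LOC310926 and Fkbp2, and the blue of the lower rows fades after 8 h for Id4, Cbfb and Ephb3.

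Gene lists describe how pathways stood at 8 h, each gene by its brightest tested probe set. They are compared with the median of all tested probe sets, 0.01 (log2), and with the 28.4% of them that were higher and the 26.2% that were lower in both experiments. Of 384 list entries in 20 lists, 251 were tested. No member of any list passed the adjusted threshold.

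The NF-kB list had the largest median among the 15 pathway lists, 0.62 (0.93 in experiment 1 and 0.43 in experiment 2). Of its 32 genes 14 were tested, and 10 were higher and 0 lower in both experiments. An unadjusted p under 0.05 was reached by 8, all higher, against 2.73% of all tested probe sets. The lists were chosen with earlier results of these data known, and this one holds genes already named above by their small p. The count is thus a description and not a test of the pathway. Besides the genes above, Ccl7, another monocyte chemokine, was dim in mock cells at 14.2 and 19.5 and measured 97.3 and 36.0 in p25alpha cells, without overlap (log2 1.83 ± 0.44, adjusted p = 0.877). The 12 genes not present on 2 arrays include Tnf, Il1b and Cxcl2, which encode cytokines and a chemokine of the same pathway. Filtering on present calls favours genes that are high in either group, here and in the other lists, so the counts cover the tested members only.

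The immediate early list had a median of 0.30, with 24 of 30 tested, 17 higher and 1 lower in both experiments. Of the 24, 7 had an unadjusted p under 0.05, all higher, against 2.73% of all tested probe sets. Fos, which pairs with JUN proteins in AP-1, was dim and measured 24.3 and 27.2 in mock cells and 54.6 and 84.4 in p25alpha cells (log2 1.40 ± 0.27, adjusted p = 0.683). The groups did not overlap. Junb was at 0.55 ± 0.26, carried by experiment 1 (0.98 against 0.13). The list was not uniform, and its lowest member was at -0.31. The MAP kinase feedback list had a median of 0.20, with 6 of 10 higher and 0 lower in both experiments. Its farthest member Dusp1, a MAP kinase phosphatase that is itself an early gene, measured 37.9 and 36.9 against 79.6 and 64.4 (log2 0.94 ± 0.20, adjusted p = 0.809), followed by the phosphatase Dusp5 (0.45 ± 0.15, and 0.28 ± 0.26 on its other probe set) and the signalling inhibitor Spry1 (0.42 ± 0.18).

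Oxidative stress genes had a median of 0.18, with 14 of 19 higher and 0 lower in both experiments. An unadjusted p under 0.05 was reached by 6, all higher, where the share of all tested probe sets is 2.73%. Beside Txnip and Hmox1, Srxn1, which repairs oxidised peroxiredoxins, measured 253.7 and 137.7 against 390.3 and 188.6 (log2 0.54 ± 0.14, adjusted p = 0.897), but its other tested probe set measured 0.01 ± 0.21. Mafg, a partner of NRF2, was at 0.52 ± 0.20. In the ER stress and integrated stress response list the members went both ways, 10 higher and 7 lower in both experiments of 22 tested, with a median of 0.01. Of its 10 higher members, those farthest from 0 were Ddit3, which encodes the factor CHOP (0.76 ± 0.27, and 0.01 ± 0.20 on its other probe set), Ppp1r15a, and Chac1, an enzyme that degrades glutathione (0.71 ± 0.28). The lowest was Pdia4, a protein disulfide isomerase of the endoplasmic reticulum, which measured 913.0 and 1342.0 in mock cells and 516.4 and 1056.0 in p25alpha cells (log2 -0.58 ± 0.20, adjusted p = 0.957).

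Of the lists of cell death, apoptosis genes stood near the level of all probe sets, and p53 targets did so only by the median over both experiments. For p53 targets that median was 0.06. It was 0.19 in experiment 1 and 0.22 in experiment 2, against 0.01 and 0.00 for all tested probe sets. Of 15 tested, 8 were higher and 3 lower in both experiments, against 28.4% and 26.2% of all. Bbc3, a pro-apoptotic BCL2 family gene also in the apoptosis list, measured 137.8 and 89.5 against 227.8 and 142.7 (log2 0.70 ± 0.19, adjusted p = 0.917), while Tp53inp1, a p53-induced autophagy gene, was at -0.67 ± 0.31. Gadd45a and Cdkn1a, which arrest the cell cycle, were at 0.53 ± 0.23 and 0.45 ± 0.19. The apoptosis list had a median of 0.06, with 7 higher and 4 lower of 25 tested. Fas, a death receptor, had signals of 120.8 and 177.5 in mock cells and 126.9 and 163.0 in p25alpha cells, a difference of -0.03 ± 0.16 with opposite signs in the experiments. Tnfrsf1a, the main receptor for TNF, was at 0.63 ± 0.20 and Xiap, an inhibitor of caspases, at -0.48 ± 0.28.

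The interferon list had a median of 0.11 with 4 of 11 higher and 0 lower in both experiments. Only Cxcl10, a chemokine for T cells, had an unadjusted p under 0.05, at 156.6 and 128.5 against 299.2 and 160.4 (log2 0.63 ± 0.17, adjusted p = 0.917), and Mx1, an antiviral protein, was at -0.27 ± 0.55. Cytosolic heat shock proteins had a median of 0.05, with 5 higher and 6 lower of 16 tested and 0 with an unadjusted p under 0.05. Hsf1, the factor that drives them, was at 0.32 ± 0.16 and Dnajb4, a co-chaperone, at -0.21 ± 0.16. The ID and HES list had a median of 0.14. Hes1, a transcriptional repressor that acts within the Notch pathway, was dim, at 19.0 and 37.4 against 28.2 and 60.0 (log2 0.63 ± 0.32). Id2 was at 0.41 ± 0.20, with its other probe set at -0.03 ± 0.17.

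Microtubule genes, of interest because p25alpha binds tubulin, had a median of 0.03, with 5 higher and 2 lower in both experiments of 17 tested. The farthest was Kif5b, a kinesin motor, which measured 363.5 and 417.6 in mock cells and 201.5 and 353.2 in p25alpha cells (log2 -0.55 ± 0.18, adjusted p = 0.957), most of it in experiment 1 (-0.85 against -0.24). DNA replication and mitosis genes had a median of -0.07, with 6 higher and 9 lower of 20. E2f1, a factor of the S phase, was at 0.49 ± 0.19, Birc5, the mitotic protein survivin, at -0.39 ± 0.13 and Mcm6, a replicative helicase subunit, at -0.34 ± 0.12. The synuclein and parkinsonism list had a median of 0.16, with 5 of 6 higher in both experiments. Pink1, a kinase that marks damaged mitochondria, was at 0.33 ± 0.27 and, on its other probe set, at 0.55 ± 0.21. Sterol synthesis genes had a median of 0.00 and SRF and TGF-beta contractile genes one of -0.02. The median was -0.03 for the oligodendrocyte markers, 0.12 for neuron markers (6 tested of 12), -0.06 for astrocyte markers (4 of 8) and -0.22 for fibroblast and smooth muscle markers (5 of 9). The summed signal of the astrocyte markers was 3082.4 and 1993.7 in mock cells and 3106.6 and 1990.5 in p25alpha cells, and that of the neuron markers 603.7 and 774.3 against 556.1 and 694.1. For the fibroblast and smooth muscle markers it was 3925.9 and 4896.3 against 4606.6 and 4433.0, higher in 1 experiment and lower in the other. Of the microglia markers only Csf1r, the receptor for a macrophage growth factor, was tested, so its difference of 1.15 ± 0.77 (1.48 and 0.81 in the experiments, adjusted p = 0.964) is also the list's median, the highest of the 20. Its signals were 8.3 and 25.1 in mock cells and 23.2 and 44.0 in p25alpha cells, and the groups overlapped. At 12 and 16 h Csf1r was at -0.14 ± 0.77 and -0.44 ± 0.77. Another 9 of the 11 microglia markers were not present on 2 arrays and 1 has no probe set under its name. What part such cells have in the cytokine and chemokine values was not tested.

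**Figure D5:**
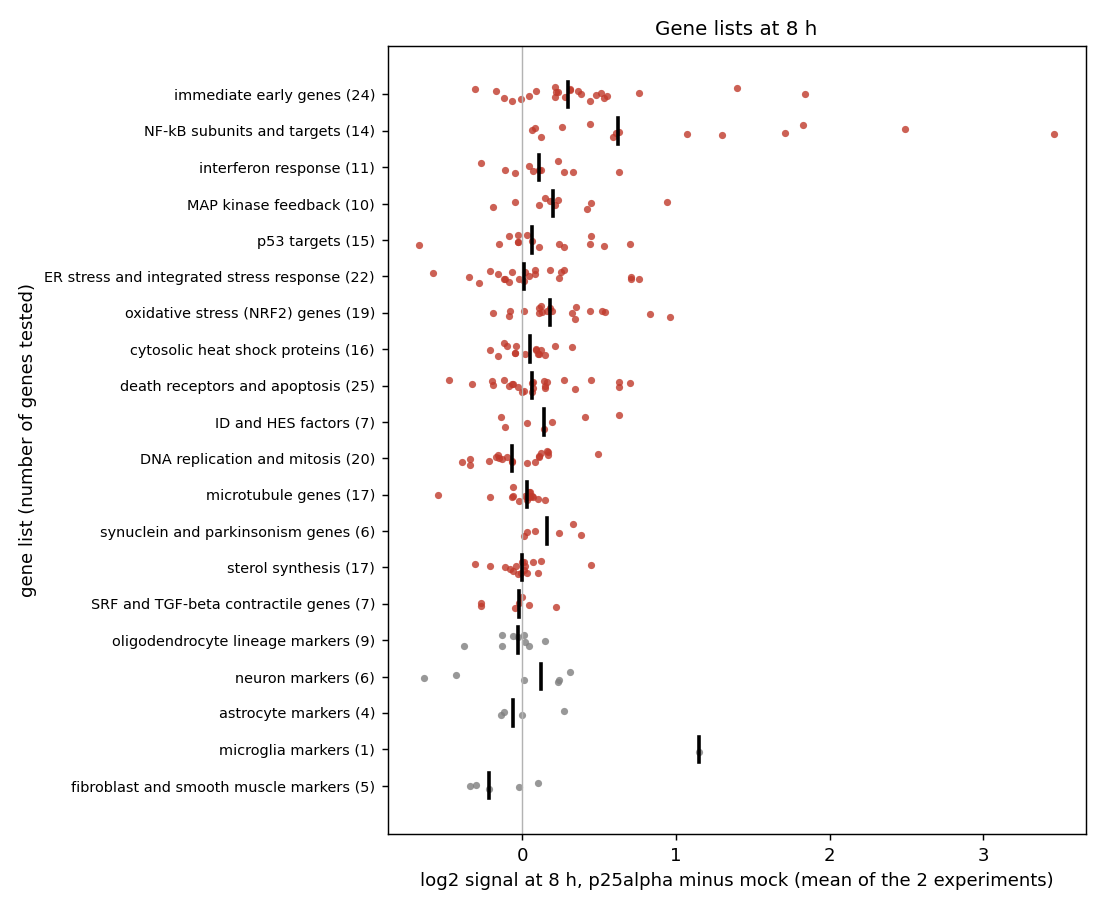
Log2 signal difference at 8 h (p25alpha minus mock, mean of the 2 experiments) for each tested member of the 20 gene lists, pathway lists in red and cell type markers in grey, with a black bar at the median of each list. The NF-kB list, with a median of 0.62, extends to Cxcl1 at 3.46, while most other medians lie close to 0.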

How the data were processed

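RNA of the 12 samples was isolated with RNeasy columns and hybridised as biotinylated cRNA, per the labels' protocols. The authors deposited intensity on a linear scale, as MAS5 signals, per the submitters' processing notes, with no version named in the sources used here. A 2% trimmed mean of 150.1 on every array shows that the authors' values share a common target level. Detection calls, and for each pair of arrays a log2 ratio and a change call, were deposited too, per the file headers. A second deposited table of rounded intensity values differed by at most 0.5 units and served as a check. Such scaling leaves low signals noisy on the log scale.

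Signals were floored at 0.1 and put on the log2 scale. AFFX controls (57) were left out. A probe set was tested when 2 or more of the 4 arrays of 8 h called it present. Symbols came from the deposited annotation, updated through a RefSeq table (GRCr8): 20206 probe sets had 1 symbol, 333 several and 10557 none, and 2052 kept the file's symbol. All 12 arrays entered a limma model (3.58.1, R 4.3.3) of 6 groups, with the experiment as a fixed replicate block, with Benjamini-Hochberg adjustment over 17102 probe sets. Samples were grouped by title, and the experiment number pairs the arrays: after subtraction of group means, arrays with the same number had correlations of 0.60 to 0.69 over the 15 pairs of groups, and the first principal component (52%) separated the experiments. A p under 0.05 after adjustment was the threshold. On simulated data with 200 changed probe sets, the model called 1, 15, 42 and 47 of 50 changed by 0.5, 1, 2 and 3 (log2).

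Named genes are those of the rule given with the results, the 2 to 4 members farthest from 0 of each list, and Tppp, Fas and Nfkbia, with other genes marked where they appear. Results of 2 genes that the rules select are not reported here, though counts and medians include them. The comparison, the rule and the lists were chosen with earlier results of these data known. A fold against a group called absent takes the mock signal itself, or the lowest signal called present on that array (2.9 to 4.5) where this is higher. Alternatives were no block, a random block, only the arrays of 8 h, quantile normalization, median centring, other filters, an offset of 50, eBayes with trend and robust, and leaving out each array.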

Additional observations from a re-analysis of the deposited data

Results flagged for a closer look

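For 6 named genes the difference at 8 h had 1 sign in both experiments and the opposite sign in all 4 later pairs. How many of all tested probe sets show this pattern was not counted. Of all tested probe sets, 28.4% were higher and 26.2% lower in both pairs at 8 h. In all 4 later pairs, 14.3% were higher and 13.2% lower. The count of 6 is therefore a description without a reference share. The difference between times was tested as the mean effect at 12 and 16 h minus that at 8 h (limma, adjusted over 17102 probe sets), and no gene passed. Id4, an inhibitor of differentiation, was at -0.62 at 8 h and differed later by 0.87 ± 0.16 (log2, SE; unadjusted p = 0.000681, adjusted p = 0.964), while its other 3 tested probe sets measured 0.25, 0.34 and -0.11 at 8 h. Eno2, a glycolytic enzyme of neurons, was at 0.24 at 8 h and differed later by -0.43 ± 0.17 (adjusted p = 0.964). Insig1, which retains the sterol sensor in the endoplasmic reticulum, was at 0.45 with a later difference of -0.75 ± 0.34 (adjusted p = 0.965). Map1b, a microtubule-associated protein, was at -0.21 and later differed by 0.30 ± 0.14 (adjusted p = 0.965), its other 3 probe sets measuring -0.43 to 0.22 at 8 h. Tpm1, an actin-binding tropomyosin, was at 0.22 with a later difference of -0.46 ± 0.24 (adjusted p = 0.965), its other 9 probe sets measuring -0.90 to 0.32 at 8 h, and Aldoc, a glycolytic aldolase, was at 0.27 with -0.52 ± 0.42 (adjusted p = 0.975). For Insig1 the difference in experiment 1 at 16 h was -0.00.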

How the results depend on the processing

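The number of probe sets past the adjusted threshold at 8 h was 0 with the fixed experiment block, and 0 with no replicate block (156 at an unadjusted p under 0.05), with only the 4 arrays of 8 h with or without the block, with quantile normalization and with no filter on dim probe sets. It was 3 with a random replicate block, 1 with median centring, 1 when presence on both arrays of a group was required, 8 with a filter at the median signal, and 12 with an offset of 50 or with eBayes with trend and robust. The last 2 settings called the same 12, all higher: Cxcl1, Ccl2, Egr1, Il6, Gadd45b, Nfkbia, Ier3, Nsmce3, Fkbp2, LOC310926 and 2 unnamed probe sets. Leaving out each array of 8 h gave 1 to 3 calls, Amh without mock of experiment 1, Polr2i without mock of experiment 2, Cxcl1, Timm17b and Wnt5a without p25alpha of experiment 1, and Cxcl1 without p25alpha of experiment 2, the lone array being taken to have the spread of the remaining groups. The adjusted p of Cxcl1 ranged from 2.45e-07 to 1. The difference between the later and the 8 h effect gave 0 calls, and 1 with an offset of 50 or with trend and robust, and 0 to 1 without each array. Probe sets 2-fold higher in both pairs numbered 31, 858 without the filter and 6 with the offset, and those 2-fold lower 8, 14 with quantile normalization, 722 without the filter and 0 with the offset. Of 471 values of named genes under alternatives, 470 kept their direction. The exception was Fas, at -0.15 without p25alpha of experiment 1 and 0.10 without p25alpha of experiment 2. Of 171 list medians, 47 moved by more than the spread between experiments. The cause of these shifts was not tested.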

Other observations

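Genes outside the named ones that the authors' deposited table called increased in both pairs of 8 h include Gadd45g, a relative of Gadd45b, with signals of 93.1 and 80.0 in mock cells and 133.7 and 145.1 in p25alpha cells (log2 0.69, limma adjusted p = 0.957). Irf1, an interferon regulatory factor, measured 249.9 and 238.4 against 441.2 and 314.8 (0.61), and Zfp36l1, an mRNA decay factor, 726.7 and 1205.0 against 973.3 and 1511.0 (0.37). These were chosen after their values were seen. Of the 37 probe sets called increased in both pairs, 29 were higher in all 4 later pairs, against 14.3% of all tested probe sets, and 8 passed at 12 h. Of the 9 called decreased in both, 4 were lower in all 4 later pairs, against 13.2%, and 0 passed at 12 or 16 h (limma).

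For Ctnnb1, which encodes beta-catenin, 2 probe sets were called in opposite directions by the same table. One probe set had signals of 3625.8 and 5479.2 in mock cells and 4326.6 and 6385.9 in p25alpha cells and was called increased in both pairs, and the other, with 598.4 and 446.1 against 328.3 and 318.2, was called decreased in both.

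A probe set without a gene name had signals of 77.2 and 72.6 in mock cells and of 240.3 and 259.8 in p25alpha cells (log2 1.74, adjusted p = 0.0809), with 2.67 at 12 h and 2.40 at 16 h (adjusted p = 0.00581 and 0.0091).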
